A study of Homo sapiens with 4 samples.

Results

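MAP kinase cascades pass a signal through successive kinases, from MAP4Ks and MAP3Ks to MAP2Ks and then to the MAP kinases ERK, JNK and p38, and on to kinases that these activate. Protein phosphatases remove the same phosphates: dual-specificity phosphatases (DUSPs) act on MAP kinases and other substrates, the PP1, PP2A, PP6 and calcineurin enzymes act on serine and threonine through catalytic and regulatory subunits, and the PTPN and PTPR families act on tyrosine. UV light is a classical activator of the JNK and p38 branches, and several of the phosphatase genes are known as stress-inducible.

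The genes described here are the protein-coding rows of the deposited table whose symbol begins with MAPK, MAP2K, MAP3K, MAP4K, DUSP, PPP and a digit, PPM1, PTPN or PTPR, with DUSP5 and PPP1CB left out. They were 44 of 4208 genes, with 10 on the kinase side and 34 on the phosphatase side. The choice went by symbol, at a time when earlier results of these data were known. The kinase side held MAPK7, 2 MAP2Ks, 3 MAP3Ks, 2 MAP4Ks and 2 MAPK-activated kinases. The phosphatase side held 9 DUSPs, 7 catalytic and 11 regulatory subunits of the PPP enzymes, 3 PPM1 genes, 2 PTPNs and 2 PTPRs. PPP1R35 carries a PPP symbol but is known for its part in centriole assembly.

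Nuclear RNA was taken from A549 cells, a human lung tumor line, in 2 conditions with 2 libraries each. UV+ cells received 40 J/m2 of UVC at 254 nm and recovered for 16 h, and UV− cells were not irradiated. The study describes the libraries of a condition as biological replicates. All p-values below rest on the spread between these few libraries, with the variance of each gene drawn in part from all genes. For each gene, reads were given for the 500 nt upstream of the polyadenylation site (PAS), which stand for total RNA, and for the 500 nt downstream of it, which stand for RNA not yet cleaved at the PAS. All values are normalized reads per 500-nt window, and the downstream/upstream ratio stands for uncleaved over total RNA.

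Summed over the 4208 genes, the libraries held 389697 to 481798 reads upstream in UV+ and 262657 to 453821 in UV−, and 76473 to 92566 reads downstream in UV+ and 50814 to 81339 in UV−. The median gene had 9 to 10 downstream reads in a UV+ library and 5 to 9 in a UV− library, so that downstream values of single genes were coarse. Among the 44 genes, 14 downstream values in 12 genes were 0. Of 12 markers of A549 cells 7 had a row, with summed upstream levels of 14013 and 14594 in UV+ and 15296 and 18263 in UV−, and of 13 markers of blood, endothelial and fibroblast cells 0 had a row. A gene can lack a row for reasons other than absence, so these counts do not measure the purity of the culture.

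The table was limited by the study to genes with a minimum of 10 reads in both windows in either condition, so that a gene could enter through the condition in which it was high. Among others, MAP3K8, MAP4K3, PPP1R12A and PTPN12 had fewer than 10 downstream reads over both UV+ libraries and so entered through UV−. DUSP14, with 0 downstream reads in UV−, entered through UV+. Among others, so did PPP1R3C, DUSP6, PPP3R1 and PPP2R1B, with fewer than 10 downstream reads over both UV− libraries. Such genes are counted among the decreases, rises and ratio calls below, and their changes are not independent of this rule. Family members without a row were not analysed here.

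The position of the windows depends on which PAS the row uses, and the letters just before it show where that is. The last 30 nt before the gene end of the row, read from the hg19 genome on the gene's strand, are given for the genes that the results turn on. Capitals mark a poly(A) signal hexamer, AATAAA or ATTAAA, where one lies in these letters.
DUSP14 (chr17:35873559-35873588, plus strand): ttatattagcattatttttAATAAAtctat
PPP1R15A (chr19:49379290-49379319, plus strand): taaggAATAAAgccttttgatttgtagcga
PPP1R3C (chr10:93388197-93388226, minus strand): actttaagAATAAAtgtgtttgatataagg
DUSP6 (chr12:89741602-89741631, minus strand): tatatgaacaatacctcttatgagtatagt
DUSP11 (chr2:73989325-73989354, minus strand): ctacttaggagataatttctttagaaccta
PPP1CC (chr12:111157613-111157642, minus strand): ttcctgAATAAAttgctctggaaaccacac
PPP3R1 (chr2:68405989-68406018, minus strand): tgaataagaaAATAAAatatttgaaacttg
PPP2R1B (chr11:111597632-111597661, minus strand): aaAATAAAgtaccacacatattgcactttt
MAP2K4 (chr17:12047119-12047148, plus strand): tatctgtgcatttcacaccagggaaaatga
MAP4K3 (chr2:39476407-39476436, minus strand): acatgttttttaacatgctgttgtatagta
MAP4K5 (chr14:50885211-50885240, minus strand): aatataaagttatttattctttaaaaatgc
MAPKAPK5 (chr12:112331199-112331228, plus strand): ttagtaaacagttgaatcaaggactctgga
PTPN12 (chr7:77269359-77269388, plus strand): ATTAAAaaaaacaaacagttttacagtgcc

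The hexamer AATAAA lay within the last 50 nt in 4 of 10 kinase genes (40%) and in 24 of 34 phosphatase genes (70.6%), against 2440 of 4205 genes with a position (58%). For DUSP6 and MAPKAPK5 the whole 500-nt downstream window lay in an annotated exon of the gene itself, beyond the gene end that the table used. For DUSP11 the window was covered by same-strand exons of the gene and of another annotated gene together, and the part of each was not determined. For these genes, reads downstream can come from RNA that was cleaved at a later site. An annotated exon on the same strand covered at least 250 nt of the downstream window in 3 kinase genes (30%) and 10 phosphatase genes (29.4%), which is close to the 30% of all genes with a position.

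Total RNA of most kinase genes with a row was lower in UV+ cells. Of 10 kinase genes, 6 fell and 0 rose upstream of the PAS (limma, Benjamini-Hochberg adjusted over all genes), which is 60% of them, whereas 20.7% of all 4208 genes fell and 11.7% rose. The median log2 fold change of the kinase genes was −1.63, beside −0.24 over all genes. Of the 6 that fell, all but MAP3K8 are longer than 46691 nt. Of all genes from that length on 51.8% fell, with a median of −1.56, and the part of length in the kinase decreases was not tested. The genes that fell stood at each level of the cascade above the MAP kinases and 1 stood below them. In bulk RNA of a culture, fewer cells with a transcript and less RNA per cell cannot be told apart.

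MAP2K4 and MAP2K6 encode MKK4 and MKK6, which phosphorylate JNK and p38, and both fell. MAP2K6 had 17.9 and 32.9 normalized reads upstream in UV+ and 83.5 and 85.3 in UV−. Its mean was 25.4 ± 10.6 in UV+ and 84.4 ± 1.29 in UV− (SD, n = 2 each), with a log2 fold change of −1.75 (SE 0.36, limma adjusted p = 0.0027). MAP2K4 had 7.32 and 12.6 in UV+ and 33.4 and 46.8 in UV−, and its log2 fold change was −1.93 (SE 0.48, limma adjusted p = 0.0085). In both genes the UV+ libraries lay wholly under the UV− libraries.

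The MAP4Ks with a row, which act at the entry of the JNK branch, fell as well. MAP4K5 had 12.2 and 4.84 normalized reads in UV+ and 50.1 and 36.9 in UV−, a log2 fold change of −2.33 (SE 0.52, limma adjusted p = 0.0047). MAP4K3 was nearly absent after UV, with 2 and 0 upstream reads in the UV+ libraries and 13 and 30 in UV−. Its level in UV+ was 0.0398 of that in UV− (95% exact counting interval 0.00467 to 0.153), and its fitted log2 fold change was −3.77 (SE 0.80, limma adjusted p = 0.0035). Counting intervals here cover counting error only, since the reads carry no molecular identifiers.

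MAP3K8, the kinase TPL2 that activates MEK and thereby ERK, had 2 and 0 upstream reads in the UV+ libraries and 13 and 12 in UV−. This is 0.0685 of the UV− level (95% exact counting interval 0.00786 to 0.275), with a fitted log2 fold change of −3.15 (SE 0.86, limma adjusted p = 0.014). MAPKAPK5, also named PRAK, is activated by p38 and by atypical MAP kinases. It had 17.9 and 10.6 normalized reads in UV+ and 34.8 and 40.2 in UV−, a log2 fold change of −1.37 (SE 0.44, limma adjusted p = 0.03). No library of one condition overlapped the other in either gene.

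The other 4 kinase genes did not pass the test upstream, and their adjusted p-values from limma ran from 0.24 to 0.42. MAPK7 encodes ERK5, the only MAP kinase proper with a row, and had 8.13 and 3.87 normalized reads in UV+ and 11.1 and 9.02 in UV−. MAP3K12, the dual leucine zipper kinase DLK, had 20.3 and 18.4 in UV+ and 26.4 and 28.7 in UV−. MAPKAPK3, a kinase downstream of p38, was the kinase gene with a positive log2 fold change, at 0.92 (SE 0.70). MAP3K15, also named ASK3, had more reads downstream than upstream, with 19 and 26 in UV+ and 17 and 27 in UV− downstream, against 1 and 1 in UV+ and 2 and 8 in UV− upstream. Its downstream window is covered over 500 nt by an exon of PDHA1 on the opposite strand, and the source of these reads was not tested.

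Each of the 6 calls was also made with edgeR, where 12.7% of all genes rose and 21.1% fell, and 4 of them with DESeq2, where 7.65% rose and 13.4% fell and MAP3K8 and MAPKAPK5 did not pass. Without UV+ replicate 1 the call of MAP2K4 was lost (−1.58), as were those of MAP3K8 (−2.45), MAP4K5 (−1.74) and MAPKAPK5 (−1.02) without UV+ replicate 2, and without either UV− library limma made 0 upstream calls among the 44 genes and 1 to 2 over all 4208 genes, while 14 of the 44 genes had an unadjusted p under 0.05.

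**Figure D1:**
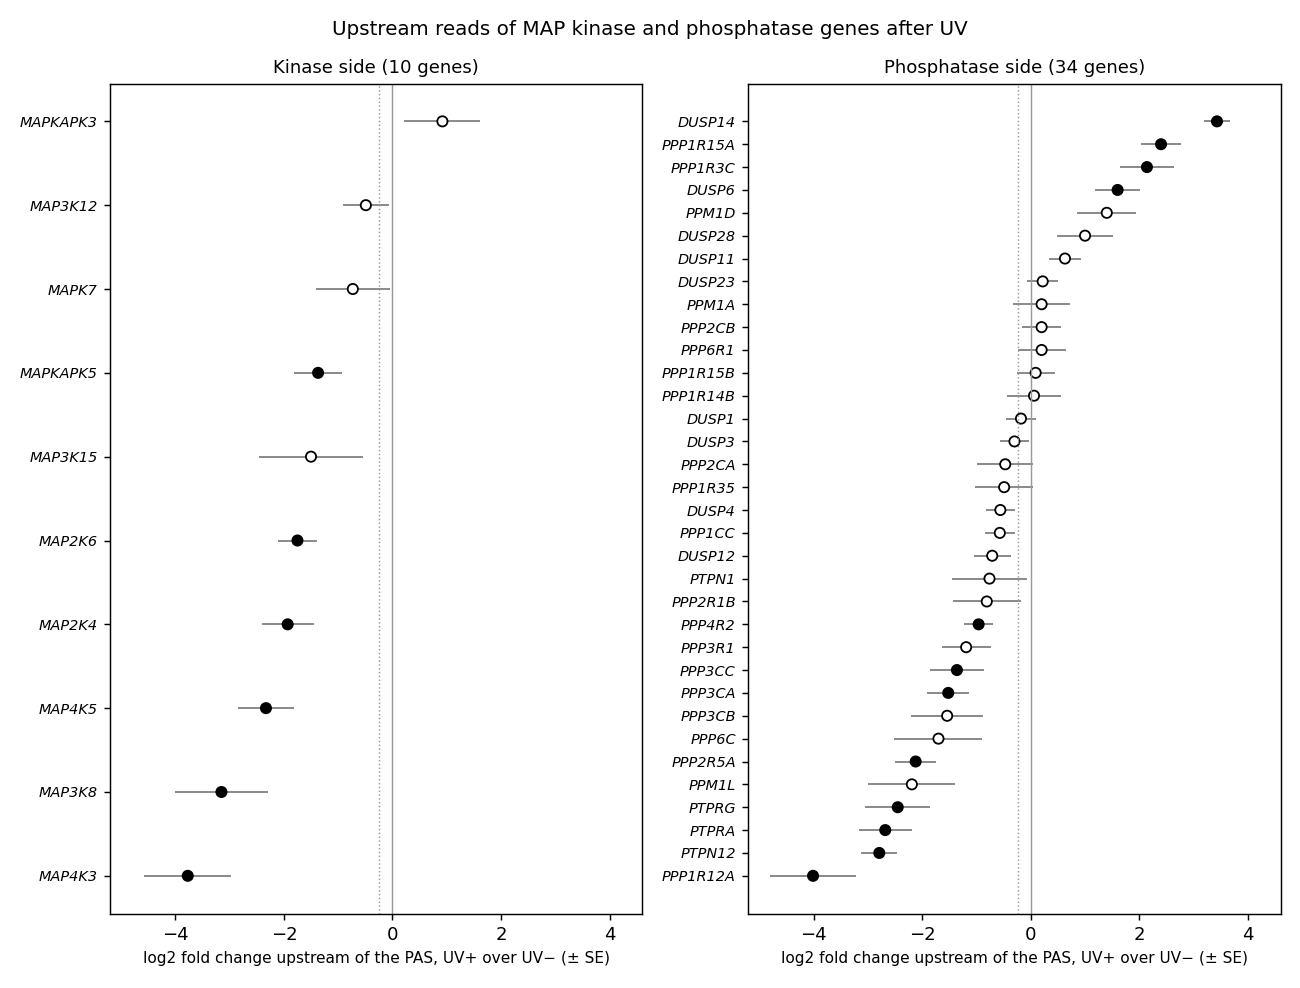
Log2 fold change upstream of the PAS, UV+ over UV−, for the 10 kinase and 34 phosphatase genes, each with its standard error from limma. Filled points passed an adjusted p of 0.05 (6 kinase genes, all lower in UV+, and 12 phosphatase genes, 4 higher and 8 lower), and the dotted line marks the median over all genes, −0.24.

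The phosphatase genes moved in both directions. Upstream of the PAS 4 of 34 rose (11.8%) and 8 fell (23.5%) with limma, shares that stood near the 11.7% and 20.7% of all genes. Their median log2 fold change was −0.53. The difference between the kinase and the phosphatase side was not tested, and the kinase genes were also longer, with a median of 82682 nt against 29348 nt. The genes that rose were DUSP14, DUSP6, PPP1R15A and PPP1R3C.

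DUSP14, a small dual-specificity phosphatase also named MKP6, had the highest level of the 44 genes in UV+ cells. It lies at chr17:35849951-35873588 and had 425.3 and 475.0 normalized reads upstream in UV+ and 36.2 and 45.9 in UV−. Its mean was 450.1 ± 35.1 in UV+ and 41.1 ± 6.9 in UV− (SD, n = 2 each), a log2 fold change of 3.43 (SE 0.24, limma adjusted p = 1.9e-06). Both UV+ libraries stood far above both UV− libraries. Downstream of the PAS it had 18 and 8 reads in UV+ and 0 and 0 in UV−, which is at least 7.42-fold higher in UV+ when 3 reads over the condition are taken as the floor. The ratio of the windows did not pass the test at a pseudocount of 1 (log2 fold change 0.12, limma adjusted p = 0.96) and moved with the pseudocount, to 1.03 at 0.5 and to −1.65 at 5. With edgeR it was 3.17 and with DESeq2 2.41, and neither passed the unadjusted threshold. No direction of this ratio is read from these values, since the UV− libraries had 0 downstream reads.

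PPP1R15A, known as GADD34, is the stress-inducible subunit that brings PP1 to phosphorylated eIF2α and so restores translation. It lies at chr19:49375649-49379319 and had 65.9 and 91.9 normalized reads upstream in UV+ and 12.5 and 15.6 in UV−. The log2 fold change was 2.40 (SE 0.37, limma adjusted p = 0.00044). Downstream of the PAS it had 82.9 and 51.3 in UV+ and 9.74 and 9.02 in UV−, a log2 fold change of 2.67 (SE 0.40, limma adjusted p = 0.0033). Total and uncleaved RNA of this gene rose by similar amounts, and its ratio had a log2 fold change of 0.28 (SE 0.73, limma adjusted p = 0.9).

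PPP1R15B, the constitutive partner of PPP1R15A in the same function, is given for contrast and was chosen after its values were seen. It had 35.8 and 36.8 normalized reads upstream in UV+ and 33.4 and 34.5 in UV−, a log2 fold change of 0.09 (SE 0.35, limma adjusted p = 0.86). Its downstream reads were 27 and 11 in UV+ and 2 and 8 in UV−, and the downstream log2 fold change of 1.61 (SE 0.68) did not pass the test (limma adjusted p = 0.11). The difference in response between both genes was not tested.

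PPP1R3C, also named PTG, targets PP1 to glycogen. It had 47.2 and 31.9 normalized reads upstream in UV+ and 11.1 and 5.74 in UV−, with a log2 fold change of 2.14 (SE 0.50, limma adjusted p = 0.0068). Downstream it had 39 and 22.2 in UV+ and 5.57 and 3.28 in UV−, with a log2 fold change of 2.52 (SE 0.56, limma adjusted p = 0.015). As for PPP1R15A, the libraries of both conditions were separate in both windows. DUSP6 encodes MKP3, a cytoplasmic phosphatase of ERK that ERK signaling itself induces. It had 39 and 50.3 upstream in UV+ and 13.9 and 13.9 in UV−, with a log2 fold change of 1.60 (SE 0.41, limma adjusted p = 0.0099). Both PPP1R3C and DUSP6 had fewer than 10 downstream reads over both UV− libraries. They entered through UV+, so that their rises are not independent of the read minimum of the study.

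All 4 rises were also called with edgeR and with DESeq2. That of PPP1R3C was lost without UV+ replicate 1 (1.86) and without UV+ replicate 2 (2.41), and that of DUSP6 without UV+ replicate 2 (1.42).

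The other 7 DUSP genes did not pass the test upstream. DUSP1, the nuclear phosphatase MKP1 and an immediate-early gene, had 61.8 and 75.5 normalized reads in UV+ and 69.6 and 86.1 in UV−, a log2 fold change of −0.18 (SE 0.28, limma adjusted p = 0.65). DUSP4, the nuclear phosphatase MKP2, had 65.1 and 70.6 in UV+ and 87.7 and 115.7 in UV−, a log2 fold change of −0.56 (SE 0.27, limma adjusted p = 0.12). DUSP3, DUSP12, DUSP23 and DUSP28 had values from −0.71 to 1.00. PPM1D, the p53-induced phosphatase WIP1, had 18.7 and 27.1 in UV+ and 6.96 and 9.02 in UV−, and its log2 fold change of 1.40 (SE 0.54) missed the threshold (limma adjusted p = 0.061, edgeR adjusted p = 0.055). These genes were named after their values were seen.

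The palindrome TGACGTCA, known as the full cAMP response element that ATF and CREB factors bind, was searched in RefSeq promoters (GRCh38.p14, from 250 bases before each gene's start to 50 after it) after the values were seen, and its reverse complement has the same letters. It lay in the promoters of 3 of 37 members with an entry, against 540 of 27305 promoters (1.98%). The 30 letters around each match are shown with the motif in capitals.
PPP1R15A (58 bases before the start): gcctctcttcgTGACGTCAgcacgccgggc
PPM1D (61 bases before the start): agagagccgagTGACGTCAgcgggggagaa
DUSP1 (125 bases before the start): ggcagggcgggTGACGTCAccgccccgtca

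Of these 3 genes only PPP1R15A passed the test upstream. The AP-1 letters TGACTCA, which do not overlap the palindrome, lay in 1 of the 37 promoters, that of PPP2CA, and in 4.92% of all promoters, counting both strands. The letters TGATGCAA, known from sites of ATF4, lay in 1 of the 37, that of PPP1R15B, and in 0.923% of all promoters. No promoter of a member held more than 1 of the 3 motifs.

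Among the 8 phosphatase genes that fell upstream, the tyrosine phosphatases had some of the largest changes. PTPN12 encodes PTP-PEST, a cytoplasmic phosphatase of focal adhesion proteins, and lies at chr7:77166773-77269388. It had 17.1 and 26.1 normalized reads upstream in UV+ and 178.1 and 129.6 in UV−. Its mean was 21.6 ± 6.39 in UV+ and 153.9 ± 34.3 in UV− (SD, n = 2 each), a log2 fold change of −2.79 (SE 0.33, limma adjusted p = 6.3e-05). Every UV+ value was less than the lowest UV− value by a wide margin.

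PTPRA, a receptor phosphatase that activates SRC kinases, had 8.94 and 4.84 normalized reads upstream in UV+ and 44.5 and 51.7 in UV−, a log2 fold change of −2.68 (SE 0.49, limma adjusted p = 0.0013). PTPRG, a receptor phosphatase of the carbonic anhydrase-like type and the longest of the 44 genes (733331 nt), had 13 and 2.9 in UV+ and 43.1 and 36.1 in UV−, a log2 fold change of −2.45 (SE 0.60, limma adjusted p = 0.0085). The UV+ values of PTPRG differed more between libraries than those of PTPRA, and its call was lost without UV+ replicate 2 (−1.53). PTPN1, the insulin receptor phosphatase PTP1B, had 4.07 and 6.77 in UV+ and 6.96 and 13.1 in UV− and did not pass the test (limma adjusted p = 0.41).

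Of 11 regulatory subunit genes of the PPP enzymes 3 fell upstream, 2 rose and 6 did not pass the test, beside 20.7% of all genes lower and 11.7% higher. PPP1R12A encodes MYPT1, which targets PP1 to myosin, and had the largest decrease of the 44 genes on the fitted scale. It had 5 and 0 upstream reads in the UV+ libraries and 32 and 34 in UV−, and its mean was 2.03 ± 2.87 normalized reads in UV+ and 36.2 ± 11.8 in UV− (SD, n = 2 each). Its log2 fold change was −4.01 (SE 0.79, limma adjusted p = 0.0024). PPP2R5A, a B56 subunit of PP2A, had 13 and 26.1 in UV+ and 91.8 and 76.3 in UV−, a log2 fold change of −2.12 (SE 0.38, limma adjusted p = 0.0013). PPP4R2, a subunit of the PP4 enzyme that acts on DNA repair proteins, had 52.9 and 60.9 in UV+ and 115.5 and 106.6 in UV−, a smaller decrease of −0.96 on the log2 scale (SE 0.27, limma adjusted p = 0.016). The conditions did not overlap in any of the 3.

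Calcineurin, the calcium-dependent phosphatase that acts on NFAT, had 4 genes with a row, and each had a negative log2 fold change upstream. All 4 are longer than 46691 nt, and of all genes from that length on 51.8% fell, with a median of −1.56. The catalytic subunit gene PPP3CA had 18.7 and 14.5 normalized reads in UV+ and 47.3 and 50.9 in UV−, a log2 fold change of −1.52 (SE 0.39, limma adjusted p = 0.0099). PPP3CC had 8.13 and 13.5 in UV+ and 29.2 and 27.9 in UV−, a log2 fold change of −1.36 (SE 0.49, limma adjusted p = 0.048). PPP3CB (−1.54, SE 0.66, limma adjusted p = 0.087) and the regulatory subunit gene PPP3R1 (−1.19, SE 0.45, limma adjusted p = 0.06) missed the threshold.

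The catalytic subunit genes of the other PPP enzymes did not pass the test upstream, and their difference from the calcineurin genes was not tested. They are also shorter, from 23171 to 43367 nt. PPP1CC encodes the gamma catalytic subunit of PP1 and had 64.2 and 89 normalized reads in UV+ and 100.2 and 127.1 in UV−. PPP2CA and PPP2CB encode the catalytic subunits of PP2A, and PPP6C that of PP6. Their upstream log2 fold changes were −0.47 (SE 0.52), 0.20 (SE 0.36) and −1.70 (SE 0.81).

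With edgeR each of the 8 decreases was called, and with DESeq2 6 of them, without PPP3CC and PPP4R2. The calls of PPP3CC (−1.02) and PPP4R2 (−0.85) were lost without UV+ replicate 1, and those of PPP3CA (−1.35) and PPP3CC (−1.69) without UV+ replicate 2.

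**Figure D2:**
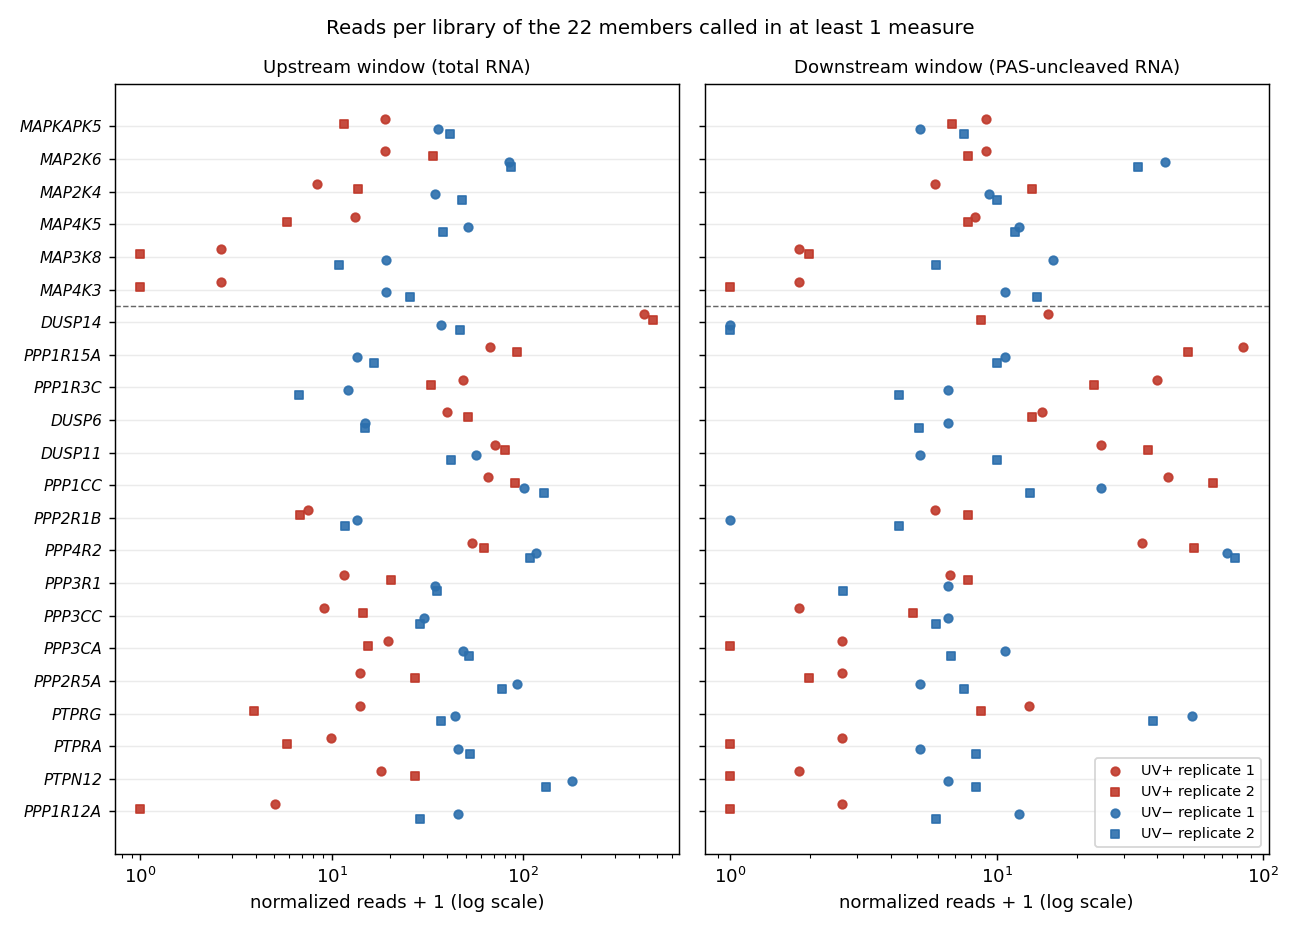
Normalized reads plus 1, on a log axis, in each library for the 22 genes called in at least 1 measure, upstream (left) and downstream (right) of the PAS, with kinase genes and phosphatase genes apart. Red points are UV+ libraries and blue points UV− libraries, and upstream the red points of DUSP14, at 425.3 and 475.0 normalized reads, lie farthest to the right.

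Gene length moved with the upstream change. Over all 4205 genes with a position the Spearman correlation of gene length with the upstream log2 fold change was −0.55, and over the 44 members it was −0.74. These are correlations across genes of the same 4 libraries, and genes are not independent replicates. When all genes were split by length into 4 bins of like size, the longest bin began at 46691 nt, and there 13 of 20 members fell and 0 rose, with a median of −1.65, and 51.8% of all genes of that bin fell, with a median of −1.56. In the shortest bin, up to 7024 nt, 3 of 9 members rose and 0 fell, where 26% of all genes rose. The 3 were PPP1R15A, PPP1R3C and DUSP6. DUSP14 (23638 nt) rose and MAP3K8 (27813 nt) fell in the third bin, where 6.18% of all genes rose and 16.1% fell. The part of length in the difference between kinases and phosphatases was not tested.

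**Figure D3:**
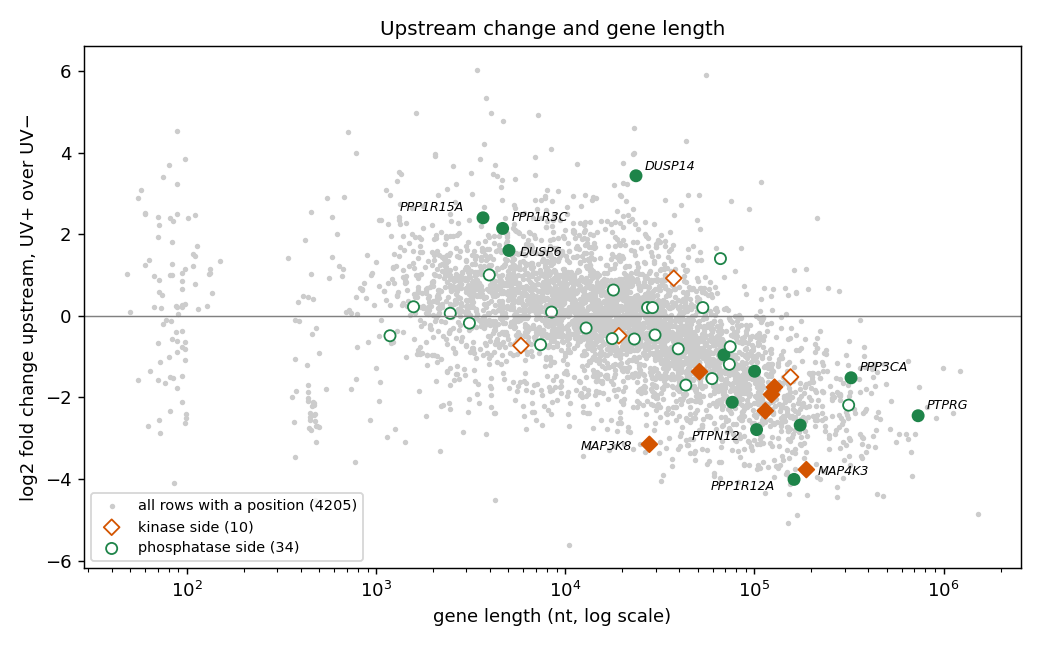
Log2 fold change upstream, UV+ over UV−, against gene length on a log axis for 4205 genes (grey), 10 kinase genes (diamonds) and 34 phosphatase genes (circles), with filled symbols for members that passed an adjusted p of 0.05. Members longer than 46691 nt lie mostly below 0, with a median of −1.65, and the 4 members that rose are no longer than 23638 nt.

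Downstream of the PAS, where reads stand for uncleaved RNA, 2 of 10 kinase genes fell (20%) and 0 rose, and 5 of 34 phosphatase genes rose (14.7%) and 2 fell (5.88%) with limma. Over all genes 11.7% rose and 9.41% fell. Of the 9 members called downstream, 7 were also called upstream in the same direction, which is 77.8% of the downstream calls and 38.9% of the 18 upstream calls. These were MAP2K6, MAP4K3, DUSP14, PPP1R15A, PPP1R3C, PTPN12 and PTPRG. Both windows come from the same libraries. With edgeR 3 kinase genes fell, 5 phosphatase genes rose and 1 fell, beside 14.1% of all genes higher and 10.5% lower. DESeq2 gave an adjusted p to 2495 genes downstream, of which 8.22% rose and 5.05% fell. Among the members it gave one to 5 kinase genes, of which 1 fell, and to 14 phosphatase genes, of which 2 rose and 1 fell.

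MAP2K6 had 10 and 7 downstream reads in UV+ and 30 and 40 in UV−, with a log2 fold change of −2.17 (SE 0.45, limma adjusted p = 0.012). Its downstream window lies wholly in an annotated exon of the gene, as does that of PTPRG. PTPRG had 15 and 8 reads in UV+ and 38 and 46 in UV−, with a log2 fold change of −2.09 (SE 0.43, limma adjusted p = 0.012). Each was lower in both UV+ libraries than in either UV− library. MAP4K3 had 1 and 0 in UV+ and 7 and 16 in UV−, which is 0.0372 of the UV− level (95% exact counting interval 0.000904 to 0.229, limma adjusted p = 0.024). PTPN12 had 1 and 0 in UV+ and 4 and 9 in UV−, which is 0.0658 of the UV− level (95% exact counting interval 0.00155 to 0.438). Its call rested near the threshold (limma adjusted p = 0.049), and it was lost with edgeR (adjusted p = 0.08).

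The genes called downstream and not upstream were DUSP11 and PPP1CC. DUSP11 encodes an RNA 5′-triphosphatase of the dual-specificity family and not a MAP kinase phosphatase. It had 29 and 37 downstream reads in UV+ and 3 and 11 in UV−, a log2 fold change of 2.06 (SE 0.54, limma adjusted p = 0.026). Upstream it had 69.9 and 79.3 normalized reads in UV+ and 55.7 and 41 in UV−, a log2 fold change of 0.63 (SE 0.30) that did not pass the test (limma adjusted p = 0.12). Both windows were higher in each UV+ library than in either UV− library. An annotated exon of another gene on the same strand also lies in the downstream window of DUSP11, and the source of these reads was not tested.

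PPP1CC had 53 and 66 downstream reads in UV+ and 17 and 15 in UV−, or 53.5 ± 14.7 normalized reads in UV+ and 18 ± 8.03 in UV− (SD, n = 2 each). The log2 fold change was 1.56 (SE 0.42, limma adjusted p = 0.028), while upstream it was −0.57 (SE 0.28, limma adjusted p = 0.12). Uncleaved RNA of this gene was thus higher in UV+ at a total RNA that was not. Both the DUSP11 and the PPP1CC call downstream were also made with edgeR and were lost with DESeq2 (DESeq2 adjusted p = 0.087 and 0.071).

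Leaving out any 1 library ended all downstream calls of the 44 genes but 1, that of DUSP14 without either UV+ library. The log2 fold change of PPP1CC was 1.84 and 1.28 without the first and the second UV+ library and 2.01 and 1.12 without the first and the second UV− library. In the same order that of DUSP11 was 2.35, 1.77, 1.59 and 2.54. With 1 library left out the log2 fold change of MAP2K6 ran from −2.34 to −2.00, that of MAP4K3 from −3.62 to −2.76, that of PTPN12 from −2.89 to −2.03 and that of PTPRG from −2.39 to −1.79. That of PPP1R15A ran from 2.33 to 3.02 and that of PPP1R3C from 2.13 to 2.92, so that every gene kept its direction.

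The question of the study was how cleavage at the PAS responds to UV, and the ratio of the windows addresses it. By the threshold of the study, an unadjusted p under 0.05, the ratio was higher in UV+ in 3 of 10 kinase genes (30%) and 3 of 34 phosphatase genes (8.82%) with limma and lower in 0 of either, beside 10.9% of all genes higher and 2.69% lower. The median log2 fold change of the ratio was 0.67 for kinase genes and 0.37 for phosphatase genes, beside 0.38 over all genes, and it was positive in 33 of 44 members. After adjustment over all genes limma called 0 of 44 members and 0 of 4208 genes. At an unadjusted p under 0.05, edgeR and DESeq2 each called 0 kinase genes and 1 phosphatase gene higher, PPP1CC, and none of the 44 lower. Over all genes edgeR called 11% higher and 2.97% lower, and DESeq2 8.98% higher and 2.57% lower.

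For PPP1CC the log2 ratio of the windows was −0.57 and −0.47 in UV+ and −2.04 and −3.27 in UV−. The difference was 2.13 (SE 0.72, limma adjusted p = 0.33), and over all genes its adjusted p was 0.061 in edgeR and 0.056 in DESeq2. This gene was the member whose ratio passed the unadjusted threshold with each of the 3 tools. Its downstream log2 fold change was 1.56 and its upstream one −0.57, so that both windows entered the difference, the downstream window with the larger part. A total of 128 nt of the downstream window belongs to an annotated exon of the gene. The limma call was lost without either UV+ library (2.18 without the first and 2.09 without the second) and without UV− replicate 2 (1.52).

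In the 3 kinase genes with a higher ratio the downstream window did not pass the test and the upstream window fell. MAP2K4 had log2 ratios of −0.50 and 0.00 in UV+ and −1.88 and −2.25 in UV−, a difference of 1.82 (SE 0.67, limma adjusted p = 0.34). Its downstream reads were 6 and 13 in UV+ and 6 and 11 in UV−, and its upstream reads 9 and 13 in UV+ and 24 and 57 in UV−. The downstream levels thus overlapped between conditions and the upstream levels did not.

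MAP4K5 had log2 ratios of −0.67 and 0.41 in UV+ and −2.07 and −1.70 in UV−, a difference of 1.76 (SE 0.72, limma adjusted p = 0.36). Its downstream reads were 9 and 7 in UV+ and 8 and 13 in UV−. MAPKAPK5 had log2 ratios of −1.05 and −0.77 in UV+ and −2.79 and −2.45 in UV−, a difference of 1.71 (SE 0.65, limma adjusted p = 0.35). Its downstream window is the one that lies in its own annotated exon, with 10 and 6 reads in UV+ and 3 and 8 in UV−. The ratios of the conditions did not overlap in any of these genes, and each gene rested on few downstream reads.

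PPP3R1 had log2 ratios of −0.79 and −1.39 in UV+ and −2.39 and −3.75 in UV−, a difference of 1.98 (SE 0.75, limma adjusted p = 0.35). PPP2R1B, a scaffold subunit of PP2A, had −0.35 and 0.19 in UV+ and −3.76 and −1.45 in UV−, a difference of 2.52 (SE 0.91, limma adjusted p = 0.33). The UV− libraries of PPP2R1B stood far apart from each other, on 0 and 4 downstream reads, and its downstream window is covered over 500 nt by an exon of SIK2 on the opposite strand. The downstream reads of PPP3R1 were 7 and 7 in UV+ and 4 and 2 in UV−. Both genes had fewer than 10 downstream reads over both UV− libraries and entered through UV+. Their higher ratios are thus not independent of the read minimum of the study.

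Without UV+ replicate 2 none of the 6 ratio calls was kept. The log2 fold change was then 1.57 for MAP2K4, 1.22 for MAP4K5, 1.57 for MAPKAPK5, 2.25 for PPP2R1B and 2.28 for PPP3R1. Of the 6 calls 3 were lost without UV+ replicate 1, 4 without UV− replicate 1 and 5 without UV− replicate 2. The value of PPP2R1B was 1.37 without UV− replicate 1 and 3.68 without UV− replicate 2, and that of PPP3R1 was 2.66 and 1.30 in the same order.

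**Figure D4:**
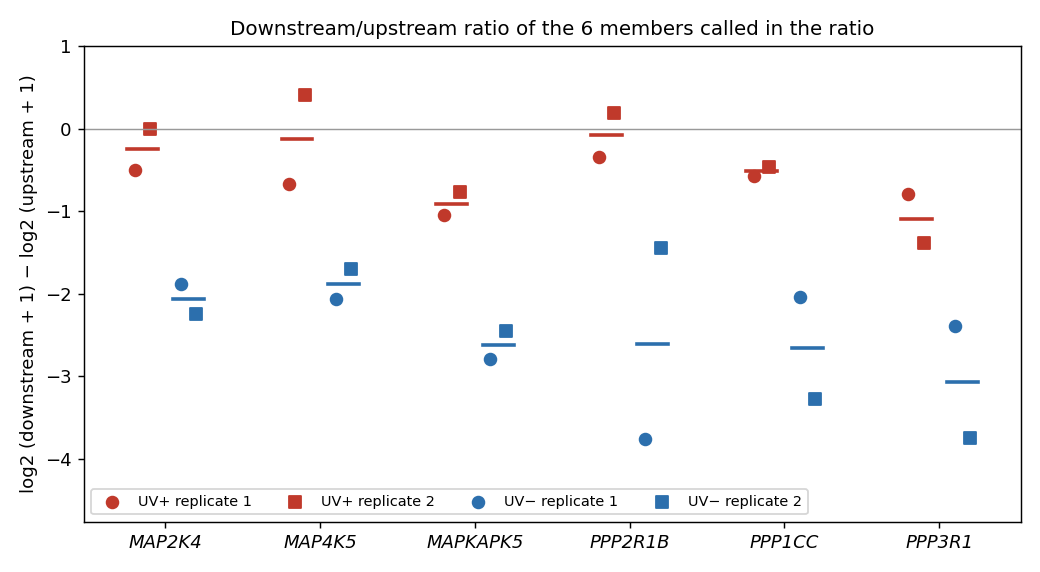
Log2 of the downstream/upstream ratio (pseudocount 1) in each library for the 6 genes called in the ratio, with UV+ libraries in red left of UV− libraries in blue and a bar at the mean of each condition. In each gene both UV+ points lie above both UV− points, and the UV− points of PPP2R1B, at −3.76 and −1.45, are the farthest apart.

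Genes of the same pathways outside the families above were taken from lists of general knowledge. Gene length, which moved with the upstream change over all genes, was not taken into account for any of these lists. Nor was the condition through which a gene had entered the table. Of 25 receptor, adaptor and other upstream signaling genes 9 had a row, and 7 of them fell upstream and 0 rose, with a median log2 fold change of −2.14, beside 20.7% of all genes lower, 11.7% higher and a median of −0.24. Of these, EGFR, the receptor of the epidermal growth factor, had 126 and 78 upstream reads in the UV+ libraries and 336 and 453 in UV− and fell by 2.23 on the log2 scale (SE 0.24, limma adjusted p = 3.3e-05).

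Of 30 transcription factors and immediate-early genes that MAP kinases act on or induce, 12 had a row. Of these, 6 were higher and 0 lower upstream, with a median of 1.85, against the same shares of all genes. EGR1, an immediate-early target of ERK, had 39 and 51 upstream reads in the UV+ libraries and 0 and 0 in UV−. Among others, EGR1, ATF3 and FOSB, which rose, had fewer than 10 reads per window over both UV− libraries and entered through UV+. The count and the median of this list are thus not independent of the read minimum of the study. Of 28 adaptors and kinases above the stress MAP kinases 9 had a row, and 1 of them rose and 2 fell. The gene that rose was GADD45A, an activator of the MAP3K MEKK4, with 682 and 443 upstream reads in the UV+ libraries and 28 and 55 in UV− (log2 fold change 3.51, SE 0.24, limma adjusted p = 1.9e-06).

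Inhibitors of the pathway that are not phosphatases had 5 of 13 genes with a row, with 2 higher and 2 lower. Of these, RASA1, which fell, is also counted in the list of upstream signaling genes above. SPRY1, which restrains receptor signaling to ERK, had 37 and 47 upstream reads in the UV+ libraries and 7 and 18 in UV−, a log2 fold change of 1.55 (SE 0.46, limma adjusted p = 0.021), and ERRFI1, an inhibitor of the EGF receptor, had 21 and 18 in UV+ and 43 and 85 in UV−, a log2 fold change of −1.85 (SE 0.36, limma adjusted p = 0.0021). Modulators of PP2A, PP1 and calcineurin outside the rule had 10 of 28 genes with a row, with 0 higher and 4 lower, and other protein phosphatases had 8 of 37, with 0 higher and 1 lower. Of all genes 11.7% were higher and 20.7% lower, and counts in lists of so few genes are given as a description. Genes named from these lists were chosen after their values were seen.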

How the data were processed

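The deposited table gave normalized reads for 4208 genes in 500 nt upstream and 500 nt downstream of the PAS, in nuclear RNA of UV+ and UV− A549 cells (2 libraries each, from a strand-specific protocol, single-end reads of 100 nt). Per the study, reads were trimmed with cutadapt, aligned to hg19 with TopHat2, kept at a mapping quality of at least 20 and counted with featureCounts in R 3.4.0; the strand setting of the counting is not given in the sources used here. The authors' signal values are read counts divided by a size factor per library, and whole reads were recovered for 33664 of 33664 values (100%, tolerance 1e-06 reads). Further deposited columns hold the authors' own DESeq2 comparisons and were not used.

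Log2(value + 1) of each window and the difference of the windows per library were tested over all 4208 rows with limma 3.58.1 (R 4.3.3), letting the prior variance follow the mean. Calls in a window took p under 0.05 after Benjamini-Hochberg adjustment, and calls in the ratio an unadjusted p under 0.05. Fold changes are on the log2(value + 1) scale, which understates changes of low genes. Alternatives were pseudocounts of 0.5 and 5, a mean of at least 10, edgeR 4.0.16 and DESeq2 1.42.0 on recovered reads, scaling by TMM, a block for the replicate number and leaving out each library. A variance trend over the mean of both windows was added after seeing the data. The tests were tried on simulated data.

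Named with values per library, by rule, were members called in any measure and the 3 most abundant of each side, which were also called; others named with values were chosen for contrast after their values were seen. The members and lists were chosen with earlier results of these data known. An exact test of 2 against 2 libraries cannot fall below 0.33. Sequences were read from GRCh37, the build of the table, exons from GENCODE 44 as lifted to that build, and promoters from RefSeq, where 37 of 44 members matched by symbol.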

Additional observations from a re-analysis of the deposited data

How the results depend on the processing

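The number of kinase genes with a higher ratio, 3, was 0 with a mean of at least 10 (which kept 1 of 10 kinase genes, with a ratio of −0.42), 0 with edgeR, 0 with DESeq2, 1 with the trend over the mean of both windows, and 0 to 3 with a library left out, where their median ratio of 0.67 ran from 0.30 to 1.19. For phosphatase genes the 3 higher ratios were 7 with a pseudocount of 5 (with 1 lower, DUSP14 at −1.65), 1 with edgeR, 1 with DESeq2, and 0 to 3 with a library left out. Their median ratio of 0.37 was 0.23 with a pseudocount of 5 and 0.51 with DESeq2, and 0.31 to 0.76 with a library left out.

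Upstream, the decreases of 6 kinase genes and 8 phosphatase genes and the rises of 4 were 0 to 5, 0 to 7 and 0 to 3 with a library left out, with medians from −1.89 to −1.48 for kinases and −0.72 to −0.35 for phosphatases. The phosphatase median was −0.30 with a mean of at least 10.

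Downstream, the 2 decreases of kinase genes were 1 with a mean of at least 10 and 0 with a library left out. Their median of −0.74 was −0.45 with a pseudocount of 5, −1.19 with a mean of at least 10, −0.89 with DESeq2 and −0.86 to −0.61 with a library left out. The 5 rises of phosphatase genes were 2 with DESeq2 and 0 to 1 with a library left out, and the 2 decreases were 1 with a pseudocount of 0.5, 1 with a mean of at least 10, 1 with edgeR and 0 with a library left out. Their median of 0.47 was 0.31 with a pseudocount of 5, 0.74 with a mean of at least 10, 0.60 with edgeR, 0.63 with DESeq2 and 0.13 to 0.35 with a library left out. DESeq2 gave an adjusted p downstream to 5 of 10 kinase genes and 14 of 34 phosphatase genes. DUSP14, MAP4K3 and PTPN12 were among the low genes without it, and such genes could not be called. The cause of these shifts was not tested, and some alternatives also left fewer genes or libraries.

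Across genes, the difference between replicate 1 and replicate 2 in UV+ correlated with that in UV− at 0.000 upstream, 0.026 downstream and 0.032 in the ratio. No shared effect of the replicate number was thus seen, which cannot show whether the libraries were paired by design. With the replicate block the counts stood at 6 kinase decreases, 9 phosphatase decreases and 4 rises upstream, 2, 3 and 5 downstream, and 3 higher ratios on each side. Upstream the block added PPP3R1 (limma adjusted p = 0.047), and downstream it added PPM1L (0.04) and PPP4R2 (0.043) and lost PTPN12 (0.054). With TMM factors no call of a named gene changed. Downstream depth limits the ratio: most members had few reads there, and a missed threshold does not show an equal ratio.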
